A study of Homo sapiens with 6 samples.

Results

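H19, KCNQ1OT1 and MEG8 are long non-coding RNAs (lncRNAs) made from imprinted domains, in which the copy inherited from one parent is active and the other is silent. They were 3 of the 74 lncRNAs named on an RT-qPCR array, which held 84 lncRNA assays, and were taken from it by the gene name of each well, which gave 1 well per gene. The choice was not blind, since they were selected on the difference between SW480 and SW480R, which was already known. Their differences between the lines are therefore given below as a description, without a test. The control was SW480, an established line of human colorectal cancer cells, with 3 clones labelled passage 0 and no regorafenib named for them. SW480R, with 3 clones labelled passage 10, was derived from SW480 by rising doses of the multikinase inhibitor regorafenib over more than 12 months. Culture in 0.02 μM of the drug for more than 20 passages followed. What the label of passage 10 counts is not stated, so it could not be matched to these more than 20 passages. SW480R is 1 adapted line, and the labels do not say whether its clones were selected apart from each other, so regorafenib, time in culture and the history of the line cannot be told apart. The array carries no protein-coding markers of colon cells, so the labelled cell type could not be checked against its markers.

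Imprinted lncRNAs lie in clusters with protein-coding genes whose activity also depends on the parent of origin. H19 is normally transcribed from the maternal copy of 11p15.5, where it shares enhancers with the growth factor gene IGF2 and carries the microRNA miR-675. KCNQ1OT1 comes from the neighbouring domain of the same band, is transcribed from the paternal copy antisense to the potassium channel gene KCNQ1, and silences nearby genes of that copy. MEG8 belongs to the 14q32 domain of DLK1 and MEG3, is normally transcribed from the maternal copy, and is a host transcript of small nucleolar RNAs. The array measured total RNA and gives no information on which parental copy was transcribed. In the RefSeq annotation of GRCh38.p14, 10 protein-coding genes lie wholly between H19 and KCNQ1OT1 on chromosome 11, among them IGF2, INS and ASCL2. KCNQ1OT1 lies inside KCNQ1, H19 lies inside the annotated span of MRPL23, and MEG8 lies on chromosome 14 and contains 46 small nucleolar RNA genes, of which 9 carry SNORD113 and 31 carry SNORD114 names.

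The microRNAs encoded inside the members are shown first, since they are the small RNA products of these loci, although the array held no assay for them. RefSeq lists 4 mature microRNAs inside the span of a member, miR-675 in H19 and miR-370 in MEG8, and none inside KCNQ1OT1. Each is written 5′ to 3′ with its seed, bases 2 to 8, in capitals. The 4 seeds are all different.
hsa-miR-675-5p (H19, chr11:1996800-1996822, minus strand): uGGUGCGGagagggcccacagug
hsa-miR-675-3p (H19, chr11:1996768-1996787, minus strand): cUGUAUGCccucaccgcuca
hsa-miR-370-5p (MEG8, chr14:100911151-100911172, plus strand): cAGGUCACgucucugcaguuac
hsa-miR-370-3p (MEG8, chr14:100911186-100911207, plus strand): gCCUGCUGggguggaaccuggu

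A promoter window of H19 is shown because methylation at the H19 promoter differs between the parental copies in normal tissue. Of the members, H19 has an entry in the RefSeq promoter table, and KCNQ1OT1 and MEG8 have none. The window runs from 250 bases before to 50 bases after 1 annotated start (GRCh38.p14, chr11:2001217-2001516, minus strand). RefSeq holds 7 H19 transcripts, and which of them begin at this start was not examined. The counts below are therefore those of this window alone, which may not be the main promoter of H19. Each CG pair, the site of DNA methylation, is in capitals.
H19 promoter: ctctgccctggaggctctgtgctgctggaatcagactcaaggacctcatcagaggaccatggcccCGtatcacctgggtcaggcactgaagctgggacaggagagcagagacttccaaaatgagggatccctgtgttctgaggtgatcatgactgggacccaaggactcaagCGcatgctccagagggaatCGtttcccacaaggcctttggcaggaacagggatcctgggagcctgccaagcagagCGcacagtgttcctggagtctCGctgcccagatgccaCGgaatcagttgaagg
The window held 6 CG pairs, against a median of 14 over 34796 promoter windows of the same length, of which 33.8% held fewer. Searched on both strands, it held no match to the TATA box TATAAA, present in 11.6% of all windows, and none to the GC box GGGCGG, present in 44.9%. It also held none to the CCAAT box (34.6% of windows) and none to the E-box CACGTG (7.20% of windows). Methylation was not measured on this array.

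Each well gave a threshold cycle (Ct), the PCR cycle at which the fluorescence passed a set level, and it falls as the amount of template rises, 1 cycle standing for a 2-fold difference if the product doubles in each cycle. The authors also deposited ΔCt, the Ct after subtraction of a reference Ct, and the log2 differences below are the ΔCt of SW480 minus that of SW480R. In the wells of H19 and KCNQ1OT1 the subtracted value was 18.51 cycles in every clone, so their differences are those of the raw Ct. In the well of MEG8 it was each clone's own mean of 5 reference assays. Over the clones that mean was 18.55 ± 0.29 (SD, n = 3) for SW480 and 18.48 ± 0.03 (SD, n = 3) for SW480R, a difference of -0.07 cycles (two-sided exact permutation P = 0.7, where 0.1 is the smallest possible). Each clone had 1 well per member, so well-to-well error is part of each SD.
One property of the Ct limits every value below. For each member, the Ct of the 3 clones of a line shared the same whole number of cycles, 21 in SW480 and 18 in SW480R for H19 and for KCNQ1OT1, and 20 in SW480 and 22 in SW480R for MEG8. The same held for 190 of the 192 groups of 3 clones on the arrays, and for 167 of the 168 groups of the lncRNA assays. In the latter the clones of a line spanned a median of 0.49 cycles and up to 0.98 cycles, and the decimals filled the cycle, each first decimal occurring in 41 to 60 of the 504 Ct. Instrument readings with such a spread would ordinarily fall on both sides of a whole cycle in many groups. Where this form of the values comes from was not tested, nor whether the Ct are fit for comparing the lines. The differences, the lack of overlap, the SD and the standard errors below all rest on the Ct as deposited.

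H19 was higher in SW480R. Its Ct was 21.77, 21.52 and 21.27 in SW480 clones 1, 2 and 3, and 18.33, 18.46 and 18.05 in SW480R clones 1, 2 and 3. The lines did not overlap, and the SW480 clone nearest to SW480R, clone 3, was still 2.81 cycles from the nearest SW480R clone. The ΔCt averaged 3.01 ± 0.25 (SD, n = 3) over the SW480 clones and -0.23 ± 0.21 (SD, n = 3) over the SW480R clones. The log2 difference was 3.24 with a standard error of 0.19, which is a 9.46-fold higher level in SW480R. Over the 9 pairs of 1 clone from each line, the fold ranged from 7.0 to 13.2. In bulk RNA such as this, more expressing cells and more RNA per cell cannot be told apart. The array lists this assay under transcript ENST00000428066 of gene ENSG00000130600. RefSeq holds 7 H19 transcripts, and primer positions were not analysed here.

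KCNQ1OT1 was higher in SW480R by a similar amount. Its Ct was 21.94, 21.19 and 21.17 in SW480 clones 1, 2 and 3, and 18.40, 18.35 and 18.14 in SW480R clones 1, 2 and 3. SW480 clone 1 stood apart from the other SW480 clones, and the SW480 clone nearest to SW480R was still 2.77 cycles from it. The ΔCt averaged 2.92 ± 0.43 (SD, n = 3) over the SW480 clones and -0.22 ± 0.14 (SD, n = 3) over the SW480R clones. The log2 difference was 3.14 with a standard error of 0.26, an 8.79-fold higher level in SW480R, and the pairs of clones ranged from 6.81-fold to 13.9-fold. In SW480 its SD was the 72nd smallest of the 84 lncRNA assays, and in SW480R the 20th smallest. KCNQ1OT1 is known as a long, unspliced RNA, so genomic DNA could be amplified in its well. The genomic DNA control of the array crossed the threshold between 35.05 and 35.97 cycles in the 6 clones. That was later than any lncRNA well, the latest of which was at 24.97 cycles. Whether genomic DNA contributed in the KCNQ1OT1 well was not tested.

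**Figure D1:**
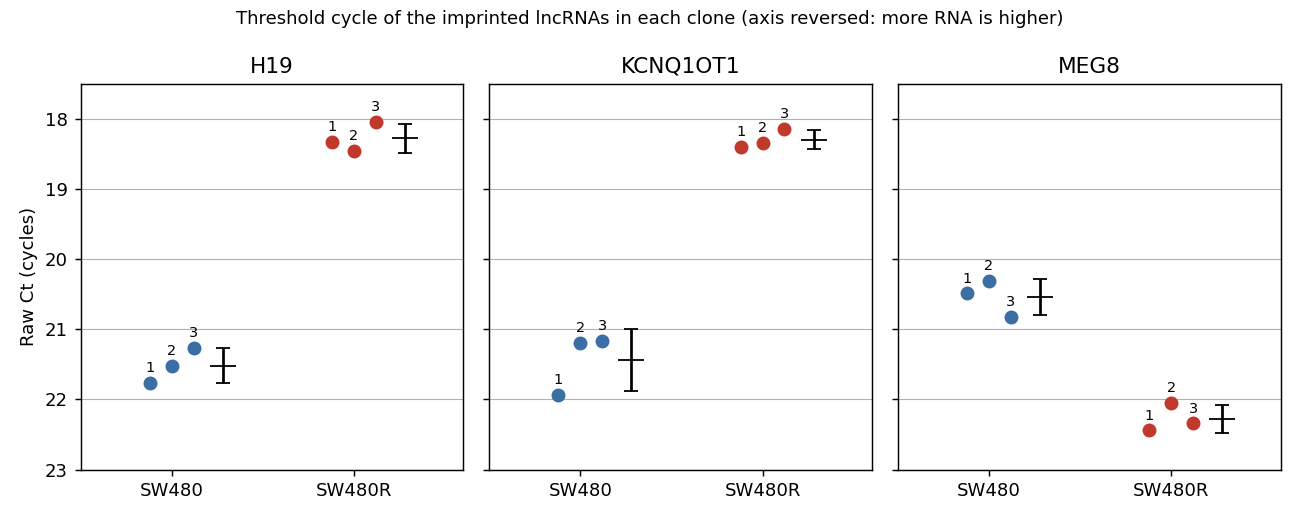
Raw Ct in cycles (vertical axis, reversed so that more RNA is higher) of H19, KCNQ1OT1 and MEG8 in the 3 SW480 and 3 SW480R clones. Numbered points are clones, bars are the mean ± SD, and grid lines mark whole cycles. H19 and KCNQ1OT1 moved from cycle 21 to cycle 18 and MEG8 from cycle 20 to cycle 22, and the lines overlap in no panel.

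MEG8, from the other imprinted domain, was lower in SW480R. Its Ct was 20.49, 20.31 and 20.82 in SW480 clones 1, 2 and 3, and 22.44, 22.05 and 22.34 in SW480R clones 1, 2 and 3. The lines did not overlap here either, but in the opposite direction. The ΔCt was 1.71, 2.09 and 2.18 cycles in SW480 clones 1, 2 and 3 and 3.99, 3.54 and 3.87 cycles in SW480R clones 1, 2 and 3. The ΔCt averaged 1.99 ± 0.25 (SD, n = 3) over the SW480 clones and 3.80 ± 0.23 (SD, n = 3) over the SW480R clones. The log2 difference was -1.80 with a standard error of 0.20, which is a 3.49-fold lower level in SW480R, and the pairs of clones ranged from 2.56-fold to 4.85-fold lower. The nearest clones of the lines were 1.36 cycles apart in ΔCt. The assay is listed under transcript ENST00000556475 of gene ENSG00000258399.

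The members were next compared with each other inside each clone. Ct of different assays depend on their primers, so the order of the levels of H19, KCNQ1OT1 and MEG8 was not read from them. The change of a Ct gap between lines needs no reference assay, because both wells hold the same cDNA. The gap of H19 minus KCNQ1OT1 was -0.17, 0.33 and 0.10 cycles in SW480 clones 1, 2 and 3 and -0.07, 0.11 and -0.09 cycles in SW480R clones 1, 2 and 3. The lines overlapped, with a mean gap of 0.09 ± 0.25 (SD, n = 3) for SW480 and -0.02 ± 0.11 (SD, n = 3) for SW480R. The shift between the lines was -0.10 cycles with a standard error of 0.16, smaller than the spread between clones, so a difference between the changes of H19 and KCNQ1OT1 was not detectable with these clones. It was 0.02 cycles without SW480 clone 2.
Between the loci the gap changed sign, although the sign itself depends on the primers. The shift of this gap combines the opposite changes in raw Ct given above, so it is no separate result. H19 minus MEG8 was 1.28, 1.21 and 0.45 cycles in SW480 clones 1, 2 and 3, and -4.11, -3.59 and -4.29 cycles in SW480R clones 1, 2 and 3. In SW480 H19 crossed the threshold after MEG8 in every clone, and in SW480R before it in every clone. The shift was -4.98 cycles with a standard error of 0.34, or 31.5-fold in the ratio of H19 to MEG8. KCNQ1OT1 minus MEG8 shifted by -4.87 cycles with a standard error of 0.35, or 29.3-fold.

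**Figure D2:**
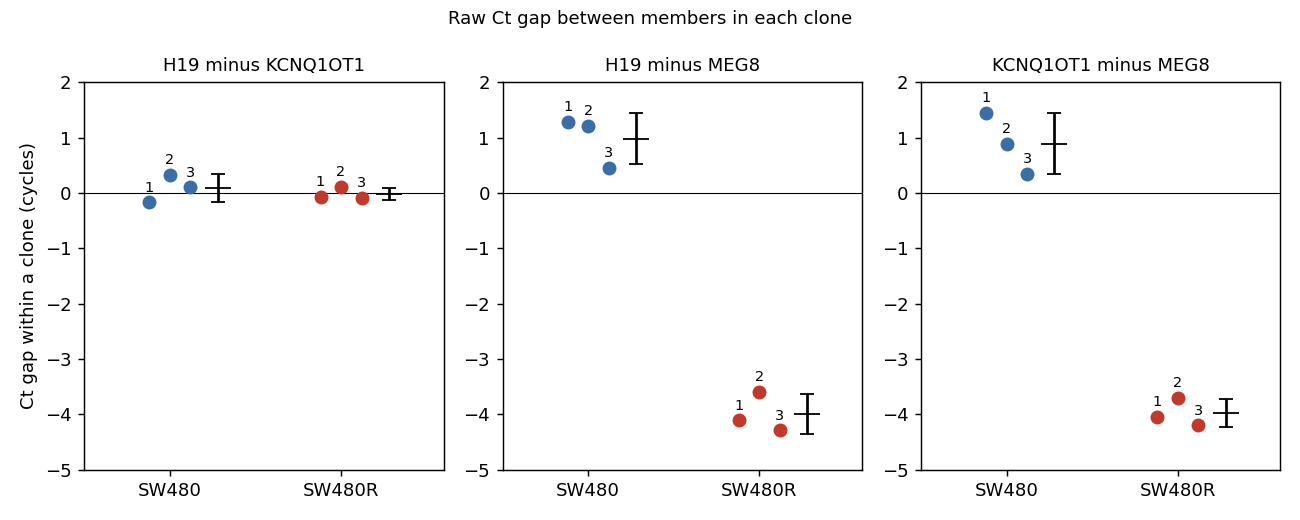
Raw Ct gap in cycles (vertical axis) between 2 members within the same clone, for each pair of members, in the 3 SW480 and 3 SW480R clones. Numbered points are clones and bars are the mean ± SD. The gap of H19 and KCNQ1OT1 stays between -0.17 and 0.33 in both lines, while both gaps to MEG8 pass from 0.35 or more in SW480 to -3.59 or less in SW480R.

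The spread between clones of a line was also set side by side. In SW480, clone 1 was 0.25 cycles above the line mean for H19 and 0.51 cycles for KCNQ1OT1, while clone 3 was 0.25 and 0.26 cycles below it. Clone 2 was at the line mean for H19 and 0.24 cycles below it for KCNQ1OT1. In SW480R, clone 3 was below the line mean again, by 0.23 cycles for H19 and 0.16 cycles for KCNQ1OT1. Clones 1 and 2 were above it, by 0.05 and 0.18 cycles for H19 and by 0.10 and 0.05 cycles for KCNQ1OT1. The order of these clones thus differed between H19 and KCNQ1OT1. MEG8 differed from both in SW480, where clone 3 was 0.28 cycles above its line mean. The mean over all 84 lncRNA assays deviated by at most 0.04 cycles in any clone. The mean of the 5 reference assays deviated by 0.24, -0.33 and 0.09 cycles in SW480 clones 1, 2 and 3, in clone 1 by about as much as H19, and by at most 0.03 cycles in SW480R. The constant subtracted in the wells of H19 and KCNQ1OT1 leaves this in their ΔCt, and its part in the deviations of the clones was not tested.

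To give the background for these values, limma was run on the ΔCt of all 84 lncRNA assays. After Benjamini-Hochberg adjustment 16 of the 84 assays (19%) were called, 10 higher in SW480R (11.9%) and 6 lower (7.14%). The 3 members were among the 16, H19 and KCNQ1OT1 as higher and MEG8 as lower, and because they were selected with this contrast known nothing is read from that count. In 23 assays (27.4%) the clones of the lines did not overlap, and these include the 3 members. In the order of the 84 log2 differences, H19 was number 2 and KCNQ1OT1 number 3 from the top, and MEG8 number 3 from the bottom. The median over the 84 assays was 0.04, and the 68 assays that were not called lay between -0.51 and 0.49. The limma P-values measure only the spread between these clones, and rest mostly on an estimate shared by all assays (58.7 prior degrees of freedom, where an assay alone has 4). Of the 84 assays, 14 had a different whole cycle in the lines, and these 14 were all called. Of the 70 assays with the same whole cycle, 2 were called.

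**Figure D3:**
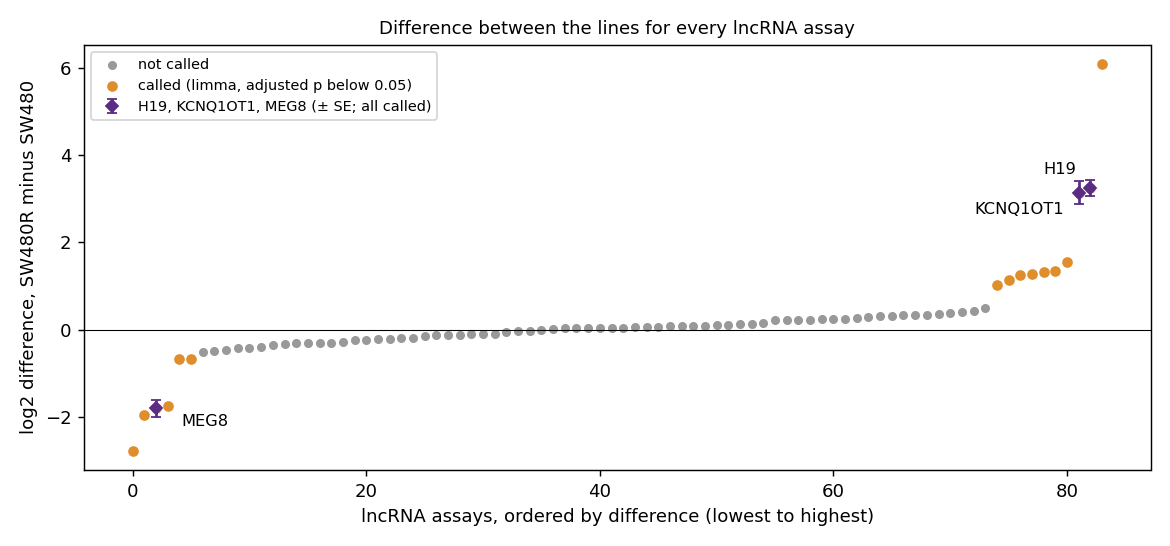
Log2 difference, SW480R minus SW480 (vertical axis), of the 84 lncRNA assays in order of size (horizontal axis). Diamonds are H19, KCNQ1OT1 and MEG8 with the standard error, and the other points are coloured by the limma call. H19 (3.24) and KCNQ1OT1 (3.14) lie below the highest assay and well above the next, and MEG8 (-1.80) lies among the lowest.

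Other imprinted lncRNAs were looked up on the array from a list of 37 names. Besides the members, 1 was present, PWRN1, which lies in the imprinted Prader-Willi region of chromosome 15. PWRN1 had Ct of 21.11, 21.49 and 21.91 in SW480 and 21.60, 21.90 and 21.18 in SW480R clones 1, 2 and 3. The lines overlapped fully, and its log2 difference of -0.06 (standard error 0.31) was not called. PWRN1 was thus the sole imprinted lncRNA of the list that was not selected on this contrast, so no count over the list is read. Of 3 lncRNAs of the X-inactivation centre looked up, TSIX, the antisense partner of the X-inactivation RNA, was present. It had Ct of 21.91, 21.74 and 21.76 in SW480 and 20.09, 20.66 and 20.94 in SW480R clones 1, 2 and 3, without overlap, and was called higher with a log2 difference of 1.24 (standard error 0.26).
Other assays of the same chromosomes were compared as well, where the array's annotation or RefSeq gave a chromosome, which was so for 42 of the 84 assays. On chromosome 11 these were lnc-AQP11-1, with a log2 difference of -0.23, and LINC00958, with 0.22, and neither was called. On chromosome 14, LINC00640 had a log2 difference of 0.27 and was not called. On the same chromosome lnc-CTAGE5-4 was called lower with -2.78, more than MEG8. Its distance to MEG8 was not computed, since no genome build is named for the positions that the array lists.

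The assays most like each member over the 6 clones were found by the root mean square difference between centred ΔCt profiles. The closest to H19 was KCNQ1OT1, at 0.17 cycles (Pearson r = 0.995 over 6 clones), where the median over all other assays was 1.62 cycles. The next, lnc-PSMC5-1, was at 0.88 cycles from H19 and 0.82 cycles from KCNQ1OT1 with a log2 difference of 1.54, less than the difference of either. It was followed for both by CTD-2201E18.3 (well B03, log2 difference 1.35), at 1.00 and 0.98 cycles, although its other wells, A11 and F06, had log2 differences of 0.23 and -0.13 and were not called. The closest to MEG8 were HOXA-AS2, an antisense RNA of the HOXA cluster, at 0.24 cycles (r = 0.967), and the SVIL-AS1 assay of well G09 at 0.25 cycles (r = 0.976). The other SVIL-AS1 assays did not share this profile, since well E08 was called higher, with a log2 difference of 1.27, and well F10 had 0.07. CTC-459F4.3 (well D06, log2 difference -0.67) came next at 0.59 cycles, against a median of 0.97 cycles, and its other well, D03, had -0.01. These likenesses are set mostly by the difference between the lines, so they describe the same contrast as above.

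The position of the wells moved with the result. H19 and KCNQ1OT1 lay in the neighbouring wells A01 and A02, and the next well, A03, had a log2 difference of 0.10. MEG8 lay in G12, at the end of a run of 4 neighbouring wells that were all lower in SW480R. These were SVIL-AS1 in G09 with -1.97, HOXA-AS2 in G10 with -1.76, lnc-CTAGE5-4 in G11 with -2.78 and MEG8 with -1.80. The wells around this run, G08 and the ACTB reference in H01, had -0.16 and -0.06. Of the 16 called assays, 13 had an assay called in the same direction in the next well of the layout, counted row by row. Assays of the same lncRNA in other wells bear on this. Of the 74 names, 7 were listed in 2 or 3 wells, and for 5 of these some wells were called and others not. SVIL-AS1 was called in opposite directions, lower in G09 (-1.97) and higher in E08 (1.27), with a different transcript listed for each well. For CTD-2201E18.3 the same transcript was listed in A11, with 0.23 and not called, and in B03, with 1.35 and called. For lnc-ZXDB-1 it was likewise listed in A12, with -0.10 and not called, and in B04, with 1.32 and called. For RP11-504P24.9 the same transcript was listed in A10, with -0.21, and in B01, with 0.09, and neither was called. H19, KCNQ1OT1 and MEG8 had no second well in which their differences could be checked. The layout was the same on every array, and the part of the position in these results was not tested.

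**Figure D4:**
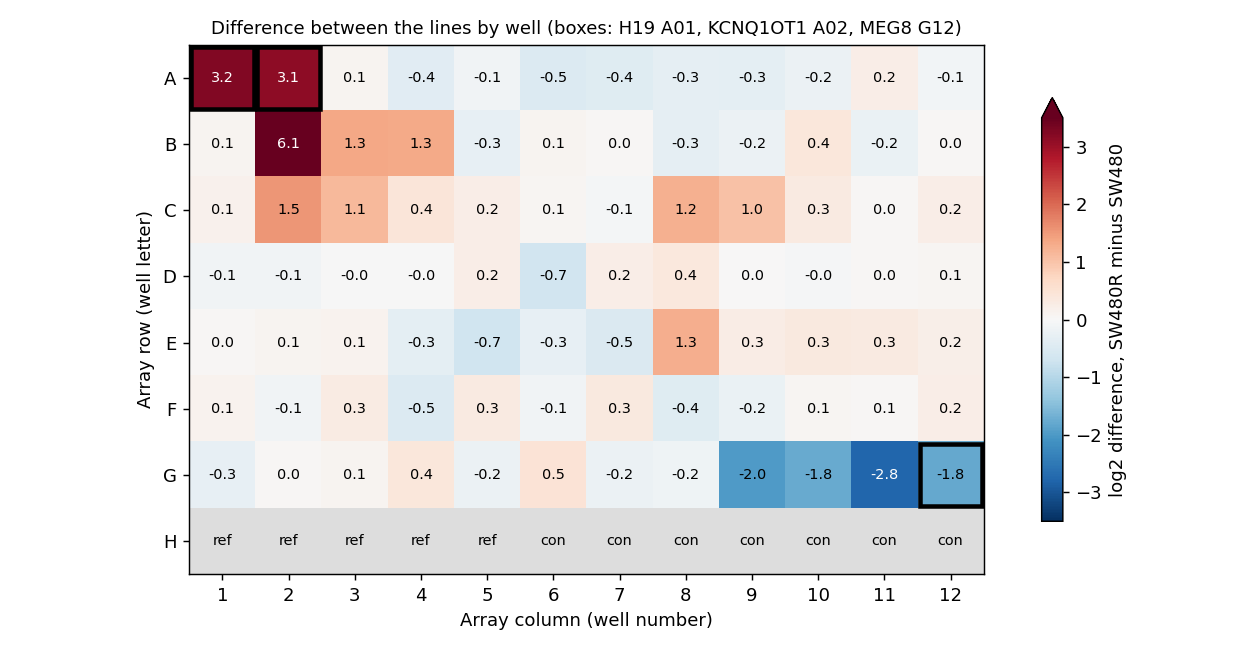
Log2 difference, SW480R minus SW480, by well of the array, with rows A to H on the vertical and columns 1 to 12 on the horizontal axis. Red is higher and blue lower in SW480R, the colour scale stops at 3.5 in either direction, grey wells are reference (ref) and control (con) assays, and boxes mark H19, KCNQ1OT1 and MEG8. H19 and KCNQ1OT1 are side by side in the first row, and MEG8 ends a blue run of 4 wells.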

How the data were processed

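RNA from 3 clones of SW480 and 3 of SW480R was measured by the authors on an RT-qPCR array of 96 wells, read for 40 cycles. They deposited raw Ct and ΔCt, handled here as a score in cycles. Fold changes they also deposited are their own comparison and were not used. Samples were grouped by title. Subtracting one table from the other gave the reference value of each well, 1 constant for 63 lncRNA assays and each clone's own for 21. Means, SD and standard errors were computed in Python 3.11.15 from the deposited ΔCt. The 84 lncRNA assays were fitted with limma 3.58.1 (lmFit, eBayes) in R 4.3.3, with the line as sole covariate and a Benjamini-Hochberg adjusted P threshold of 0.05; the fit was tested on simulated data. A fold assumes a 2-fold gain per cycle. RefSeq tables of GRCh38.p14 gave names, neighbours and sequences, and 21 of 84 assays a chromosome, while the array's annotation gave one to another 21. The members, lists and tests were chosen with earlier results of these data known. The lncRNAs named are the members, the 3 assays most like each, the listed imprinted and X-inactivation lncRNAs, and called assays of chromosomes 11 and 14. Other assays of these chromosomes and of neighbouring or repeated wells were named after their values were seen. Alternatives were other reference values, gains of 1.9 and 1.8 per cycle, a linear scale, each assay's own spread, omission of single clones, and a block for the clone number. Precision is limited by 3 clones per line with 1 well each.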

Additional observations from a re-analysis of the deposited data

How the results depend on the processing

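The log2 differences of H19, KCNQ1OT1 and MEG8 kept their direction under all 15 alternatives tried for each. Of the 45 values, 42 moved by less than the SD between clones, but many of these could not have moved by more. The clone block cannot move a mean difference here, and leaving out a clone, with 3 per line, cannot move it beyond that SD. For H19 and KCNQ1OT1 the raw Ct differ from the ΔCt by 1 constant, so they too give the same difference. The count of 42 is therefore not read as a measure of stability. The values that moved by more were those with GAPDH alone as reference, 2.82 for H19, 2.72 for KCNQ1OT1 and -2.16 for MEG8. That reference also moved the median of all assays by -0.41, and the others moved it by at most 0.15. Leaving out one clone gave 3.12 to 3.37 for H19, 2.89 to 3.27 for KCNQ1OT1 and -1.93 to -1.66 for MEG8. With the 5 reference assays of the same clone averaged and subtracted everywhere, H19 was at 3.17 and KCNQ1OT1 at 3.07. The fold of H19 was 8.01 with a 1.9-fold and 6.72 with a 1.8-fold gain per cycle. With the 1.8-fold gain KCNQ1OT1 was at 6.32 and MEG8 at 0.346 of its SW480 level, against 0.286. The shift of the H19 and KCNQ1OT1 gap ranged from -0.23 to 0.02 cycles when one clone was left out and reversed without SW480 clone 2 (0.018), within the spread. A gap within a clone cannot change with the reference, so for the shifts leaving out a clone was the informative alternative. The deposited ΔCt, chosen after seeing the data, were not informative. They had to move the shifts against MEG8 by the -0.07 cycles between the reference means of the lines. For H19 and KCNQ1OT1 the same constant was subtracted in both wells. Without one clone the shift against MEG8 ranged from -5.24 to -4.83 for H19 and from -5.15 to -4.60 for KCNQ1OT1, and on the deposited ΔCt it was -5.05 and -4.94.

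With GAPDH alone 11 assays were called lower, against 6, and 8 higher, against 10, so that 42.1% of calls were higher against 62.5%. With each assay's own spread 8 were higher and 7 lower, or 53.3% higher. Assays without overlap numbered 13 with ACTB alone and 15 with HPRT1 alone, against 23. A replicate block for the clone number left 10 assays called higher and 5 lower, all among the 16. Deviations of clones of the same number correlated at 0.00, -0.22 and 0.14 across assays. The labels name no pairing of these clones, and such correlations cannot show whether they shared more than a number.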
